A study of Drosophila melanogaster with 3 samples.

Results

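One-strand promoter peaks are ChIP-seq peaks of CG3995 whose summit lies near the starts of protein-coding genes that all read in the same direction. They were taken from the deposited dm6 list of peaks that passed the irreproducible discovery rate procedure. A peak was kept when its summit lay within 500 bp of annotated protein-coding starts on one strand and of none on the other, on the 6 main chromosome arms. This held for 1864 of 4260 peaks (43.8%). A further 1250 peaks (29.3%) had coding starts on both strands within that distance and are called two-strand peaks here, and 1146 (26.9%) had no coding start that close. The chromatin came from Drosophila melanogaster embryos of mixed sex aged 0 to 24 hours, which carried CG3995 (named bdwf, or bedwarfed, in the annotation) with a C-terminal green fluorescent protein tag. Chromatin was sheared to 200 to 800 bp and recovered with an antibody against the tag in 3 biological replicates. These formed a single group, and whole embryos of a day's range of ages mix all embryonic cell types.

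A promoter that serves a single gene has an upstream side and a downstream side, so the position and direction of whatever lies there can be read along the gene. At a divergent promoter, where a pair of genes start back to back, upstream of one gene is downstream of the other. Many fly promoters of broadly active genes carry the DNA replication-related element (DRE), which the factor DREF binds, or Motif 1, which the factor M1BP binds. Promoters of genes with restricted expression more often carry a TATA box, an initiator or GAGA sequences.

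Sequences upstream of the strongest one-strand peaks' starts show where the known promoter elements stood. The DRE (TATCGATA, its own reverse complement) and the core of Motif 1 (GGTCACAC) were searched on both strands. Of the 20 strongest one-strand peaks, 6 are shown, those with either element in the 120 bases before the start, outside annotated UTRs and on the arms whose sequence is printed. Each line runs 5′ to 3′ in the direction of the gene and ends at the base before its start, and capitals mark the element. The coordinates, dm6, are chr2L:19453491-19453610 on the minus strand for Top2, chr2L:16491420-16491539 on the plus strand for Tpr2 and chr3R:9637612-9637731 on the minus strand for Scm. For Sumo they are chr2L:6967645-6967764 on the minus strand, for CrebB chrX:18370864-18370983 and for Top1 chrX:15319359-15319478, both on the plus strand. The bases are from the RefSeq copy of the assembly.
Top2: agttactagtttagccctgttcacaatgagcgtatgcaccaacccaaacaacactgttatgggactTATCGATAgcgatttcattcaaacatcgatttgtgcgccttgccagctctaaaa
Tpr2: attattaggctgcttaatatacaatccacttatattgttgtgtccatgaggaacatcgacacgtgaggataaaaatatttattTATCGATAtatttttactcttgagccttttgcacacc
Scm: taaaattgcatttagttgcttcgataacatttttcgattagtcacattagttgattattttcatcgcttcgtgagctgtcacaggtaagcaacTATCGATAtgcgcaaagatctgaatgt
Sumo: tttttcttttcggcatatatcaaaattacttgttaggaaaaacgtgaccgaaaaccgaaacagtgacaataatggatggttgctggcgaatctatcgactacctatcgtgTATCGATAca
CrebB: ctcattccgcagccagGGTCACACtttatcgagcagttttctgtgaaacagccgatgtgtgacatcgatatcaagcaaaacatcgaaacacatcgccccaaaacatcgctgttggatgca
Top1: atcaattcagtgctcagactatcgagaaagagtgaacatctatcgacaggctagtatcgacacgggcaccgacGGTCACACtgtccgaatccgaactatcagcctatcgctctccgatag
In windows of the same 120 bases, the DRE was present at 219 of the 1864 one-strand peaks' starts (11.7%) and at 1037 of all 19253 annotated coding starts (5.39%). The Motif 1 core was present at 92 (4.94%) and at 537 (2.79%).

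A second sequence came from the windows of 50 bp to each side of the summits. Among all sequences of 6 bases, AGTCAC differed most between the 466 strongest one-strand peaks and the rest, as given further below. The 41 bases around the summit are shown for 3 of the 20 strongest peaks, those with this sequence in the window, no UTR in it and on the printed arms. They were chosen after the result was known. The windows lie at chr2L:19453587-19453627 (minus strand) for Top2, chr3R:9586868-9586908 (plus strand) for P58IPK and chr3R:24169569-24169609 (minus strand) for CG5510. Capitals mark the 6 bases, which read GTGACT where they lie on the other strand, and each line again runs along the gene.
Top2: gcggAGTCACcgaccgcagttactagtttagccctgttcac
P58IPK: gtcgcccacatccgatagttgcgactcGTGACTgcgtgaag
CG5510: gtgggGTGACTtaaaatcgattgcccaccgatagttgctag

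Signal in these lists is the authors' measure of enrichment, without a unit, and it is compared here only within a list, or between lists by rank. Read depth was unknown. The 3 replicate lists held 30000, 28051 and 24171 regions, background regions included, and all 4260 thresholded peaks were the 4260 strongest regions of the list called on the pooled replicates. A control immunoprecipitation was not analysed here, so these peaks cannot tell CG3995 binding apart from chromatin of active promoters that any pull-down would recover. A p-value over peaks or genes says nothing of the spread over collections of embryos. For that spread, values from each replicate's own 4260 strongest regions are given as mean ± SD (n = 3). By the same rule these regions held 1887, 1874 and 1838 one-strand peaks in replicates 1, 2 and 3.

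The strongest one-strand peaks sat just upstream of single genes with varied roles. The peak at l(3)73Ah, whose product is a RING-finger protein, had the largest signal of the whole list (50371), 222 times the median of all thresholded peaks (227). It ranked 1 in each of the 3 replicates, with its summit 109 bp upstream of the start. Top2, which encodes DNA topoisomerase II, followed at 25527, and its region ranked 4, 3 and 4 in replicates 1, 2 and 3. P58IPK, a co-chaperone of the endoplasmic reticulum, had a signal of 24726 and ranks of 5, 4 and 6. These 3 peaks held nearly the same place in every replicate.

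Next came CG5510 (signal 22960; ranks 6, 6 and 10) and CG13096 (22794; ranks 7, 7 and 9). The peak of UQCR-C2, a core subunit of respiratory complex III, had 22105 and ranked 9, 8 and 8, and that of Echs1, an enzyme of fatty acid oxidation, had 21046 and ranked 12 in each replicate. The peak of eIF3c, a subunit of translation initiation factor 3, had 16502 and ranked 26, 26 and 28. Scm, a Polycomb group protein, had 15481 and ranked 31, 31 and 30, and Sumo, the small ubiquitin-like modifier, had 13881 and ranked 44, 40 and 35. Of these genes Sumo had the widest range of ranks, from 35 to 44.

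The other 10 members of the 20 included peaks with close ranks and peaks with spread ones. The peak of Tpr2, a tetratricopeptide repeat protein, ranked 28, 36 and 25, and those of CG5292 and CG6833 ranked 30, 30 and 29 and 37, 38 and 36. The summit at CG8128 lay 482 bp downstream of the start in an intron of the gene, and its region ranked 22, 27 and 58. The peak at drpr, an engulfment receptor, ranked 38, 42 and 48, and that at grp, the fly Chk1 kinase, ranked 46, 41 and 46, with the start of squ within 500 bp as well. CrebB, a cyclic-AMP response factor, ranked 55, 49 and 50 and Top1, DNA topoisomerase I, ranked 47, 45 and 68. The peak of ema, an endosomal maturation gene, ranked 57, 58 and 38, and that of nej, the fly CBP acetyltransferase, ranked 43, 52 and 73, with its summit 368 bp upstream. Replicate 3 was the one that stood apart most at CG8128, Top1, ema and nej, and no region of the 20 ranked below 73 in any replicate.

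**Figure D1:**
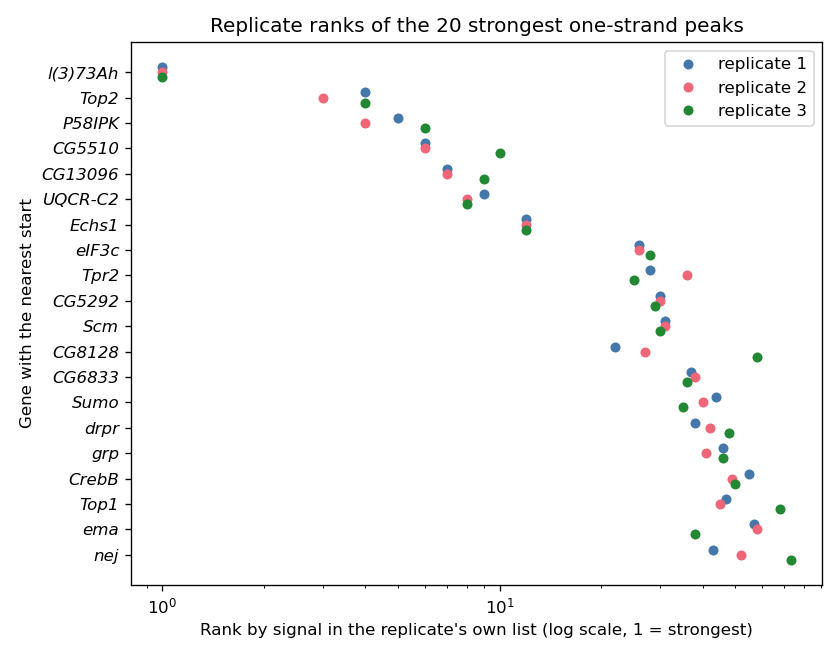
Rank by signal (log scale, 1 = strongest) of the 20 strongest one-strand peaks in the list of each replicate, 1 point per replicate, genes in order of signal in the thresholded list. The l(3)73Ah peak is at rank 1 in all 3 lists, and the widest spreads are those of CG8128 (22 to 58) and nej (43 to 73).

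Of these 20 summits 15 were intergenic, 19 were upstream of the start, and 18 were within 120 bp upstream of it. With replicate regions matched by the nearest summit, the summit was on the same side of the start in all 3 replicates at 20 of 20. By that match, which favours closeness, the 3 summits of a peak were at most 34 bp apart. The Motif 1 core stood within 50 bp of the summits of UQCR-C2, CrebB and Top1, and the DRE within 50 bp of the Scm summit. AGTCAC stood within 50 bp of 9 of the 20, namely Top2, P58IPK, CG5510, UQCR-C2, Echs1, eIF3c, CG5292, Scm and drpr.

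Over all one-strand peaks the signal ran from 127 to 50371 with a median of 235, against 255 at two-strand peaks and 193 at peaks with no coding start nearby. Of the 1864, 201 (10.8%) were above 1000. A single gene had a start within 500 bp at 1810 peaks (97.1%), and at 54 peaks more than 1 gene on the same strand did. The peaks had 1670 different genes as the nearest, and 169 genes were nearest to more than 1 peak. Rtnl1, which encodes a reticulon, had the most, with 5 peaks of signal 518, 227, 196, 178 and 171, and dnc, a cyclic-AMP phosphodiesterase, and mtd had 4 each. Peaks at 1 gene share their locus and are not independent.

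Summits stood upstream of the start. The median offset along the gene was -61 bp, the quartiles were -158 and -13 bp, and 1475 summits (79.1%) were upstream. In the strongest regions of the replicates the median was -64, -64 and -62 bp and the upstream share 77.1%, 79.4% and 74.4% (77.0% ± 2.49, SD, n = 3). The bin from -50 to -1 bp held the most, 431 summits (23.1%; replicates 21.4% ± 1.77), and that from -100 to -51 bp held 380 (20.4%; replicates 19.0% ± 1.20). Between the start and 50 bp downstream there were 159 (8.53%), and from 301 to 500 bp downstream there were 50 (2.68%). Both bins within 100 bp before the start held more summits than any other bin.

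**Figure D2:**
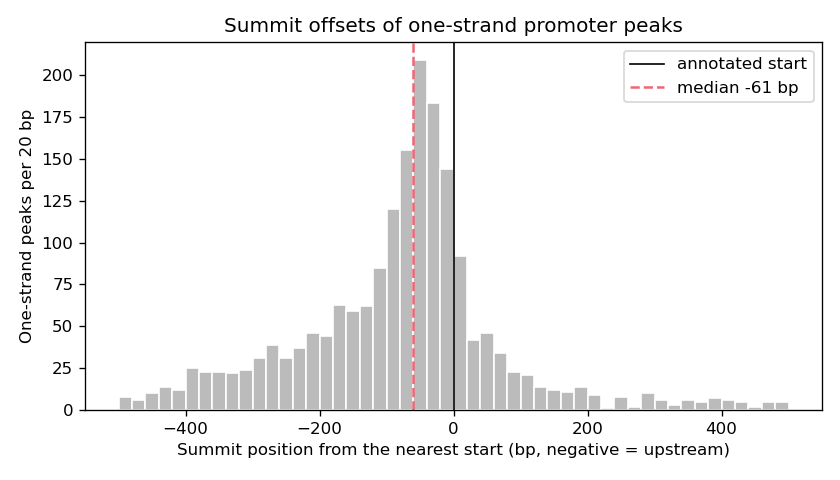
Number of one-strand peaks per 20 bp of summit position from the nearest start of the gene (bp, negative upstream). The black line is the start and the dashed line the median of -61 bp, and 79.1% of summits lie upstream.

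The median position was similar across strengths, and a somewhat smaller share of the weakest summits lay near the start. In the 466 strongest one-strand peaks the median offset was -62.5 bp and in the 466 weakest -63.5 bp. Within 100 bp of the start lay 280 of the strongest (60.1%) and 248 of the weakest (53.2%), a difference that was not tested. From 200 bp upstream to the start lay 296 of the 466 strongest summits (63.5%) and 273 of the 466 weakest (58.6%), which did not pass the test (Fisher's exact test, two-sided, exact p = 0.139). In the replicates' own lists, divided by rank in the same way, the strongest had 62.7% ± 1.49 and the weakest 54.4% ± 4.22 (SD, n = 3), higher in the strongest in each of the 3 lists.

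With replicate regions matched by the nearest summit, the summits of a peak lay close together. Of the 1864 peaks, 1847 (99.1%) overlapped a region in all 3 replicate lists, and the 3 summits spanned a median of 34 bp (quartiles 16 and 67 bp). The median span was 16 bp in the 466 strongest and 59 bp in the 466 weakest. For 1638 of the 1847 (88.7%) the summit was on the same side of the start in all replicates. Taking the overlapping region with the nearest summit favours short spans and the same side. Any overlap counted as a match, the replicate lists include background regions, and the peaks came from the pooled replicates. These values therefore cannot show how far the replicates agreed independently of the matching.

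The 500 bp limit ran through a continuous set of peaks. Just inside it were the peaks of His4r, a histone H4 gene outside the histone cluster (offset 499 bp, signal 211), and CG31612 (498 bp, signal 464). Just outside were CG17896 (-501 bp, signal 634) and CG43886 (-501 bp, signal 134).

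Most one-strand summits were outside genes. Intergenic sequence held 980 (52.6%), the 5' UTR of the gene itself 392 (21.0%) and its introns 336 (18.0%). Exons of other genes held 58, introns of other genes 63 and coding exons of the gene 33. Median signal was 244 in intergenic sequence, 240 in the 5' UTR and 219 in introns of the gene. A summit inside the gene can still be upstream of the nearest start, since many genes have several.

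The nearest coding start on the other strand was far from most of these summits, at a median of 3540 bp (quartiles 1556 and 8026 bp). By the rule none lay within 500 bp, and at 296 peaks (15.9%) it lay within 1000 bp, among them Top2, eIF3c and Scm of the 20 strongest. A noncoding gene started on the other strand within 500 bp of 102 summits (5.47%), as asRNA:CR44367 does at Echs1. Those 102 peaks had a median signal of 251 and a median offset of -82.5 bp, against 234 and -60 bp at the other 1762. By arm, chromosome 4 had 37 of the one-strand peaks, at 33 of its 80 protein-coding genes (41.2%), where the other arms had between 10.7% and 14.3% of their genes.

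One-strand peaks were slightly weaker than two-strand peaks. Of the 1864, 971 (52.1%) were above the median signal of the thresholded list, against 718 of 1250 two-strand peaks (57.4%; odds ratio 0.806, Fisher's exact test, two-sided, exact p = 0.00334). In the replicates' strongest regions the shares were 51.8% ± 0.585 and 58.8% ± 1.75 (SD, n = 3), lower at one-strand peaks in each of the 3. The difference no longer passed the test when only the 5' end of each gene record was used as the start (3.27 points lower, exact p = 0.0954). It also failed among peaks found in both of the other replicates without replicate 1 (exact p = 0.428), without replicate 2 (exact p = 0.455) and without replicate 3 (exact p = 0.0764).

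Most one-strand peaks were among the 4260 strongest regions of every replicate. This held for 1317 of 1864 (70.7%, Wilson 95% interval 68.5 to 72.7%), against 68.8% of all thresholded peaks, 930 of 1250 two-strand peaks (74.4%, 71.9 to 76.7%) and 686 of 1146 peaks with no coding start nearby (59.9%). The difference from two-strand peaks had an odds ratio of 0.828 (Fisher's exact test, two-sided, exact p = 0.0224). It did not pass with a distance of 200 bp (exact p = 0.0905), with gene records only (exact p = 0.0689) or without any 1 replicate (exact p from 0.0501 to 0.716), and among the 2130 strongest thresholded peaks it turned round, with one-strand peaks 1.63 points higher (exact p = 0.0419). The main difference was -3.75 points. With regions matched by the largest signal it was larger, at -6.52 points (exact p = 2.16e-05). It was also larger at 1000 bp (-5.56 points, exact p = 0.00036) and with 1 summit per group of overlapping peaks (-4.72 points, exact p = 0.0055). Replicate 1 alone placed 90.9% of the one-strand peaks among its strongest regions, replicate 2 placed 88.3% and replicate 3 placed 82.9%. Of the 1847 peaks matched in all lists, 818 (44.3%) had their lowest rank in replicate 3.

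Ranks held best at the strong peaks. Of the 466 strongest one-strand peaks 465 were among the strongest regions of every replicate, and of the 466 weakest 79 (17.0%) were. Over the 1847 matched peaks Spearman's rho between ranks was 0.852 for replicates 1 and 2, 0.814 for 1 and 3 and 0.787 for 2 and 3. These peaks were chosen from the pooled replicates, so the values describe only the list.

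For 4 of the 5 one-strand peaks whose ranks differed most, the ranks lay closer together under another way of matching regions. The peak at l(3)L1231 ranked 445, 17324 and 85 in replicates 1, 2 and 3 by the region with the nearest summit, and 89, 90 and 85 by the overlapping region with the largest signal. That at CG18659 ranked 176, 6878 and 180, and 176, 159 and 180 by the largest signal. CG15362 ranked 843, 13394 and 7008 by the nearest summit and 529, 458 and 563 by the largest signal. At bbc the ranks were 2107, 6974 and 22629, and 1469, 2557 and 2844 by the largest signal. At eIF3f1, a subunit of translation initiation factor 3, they were 2686, 2256 and 21328 by both rules, so that peak was weak in replicate 3.

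Among the 11 promoter sequences searched within 50 bp of the summit, the TATA box (TATAAA) was the one that differed between one-strand and two-strand peaks after Benjamini-Hochberg adjustment over the 11 (1 of 11, 9.09%). It was present at 245 of 1864 one-strand peaks (13.1%) and 239 of 1250 two-strand peaks (19.1%; odds ratio 0.640, adjusted exact p = 9.44e-05 by a two-sided Fisher test). The replicates gave 13.5% ± 0.408 and 18.3% ± 1.06 (SD, n = 3). Of all coding starts, 19.2% had it in a window of the same 101 bp centred at the median offset. That window stood at a fixed -61 bp from each start, whereas the windows at peaks followed the summits. Shares at peaks and at all coding starts are therefore not like for like, here and for the other sequences. The difference between one-strand and two-strand peaks did not pass in windows of 25 bp to each side (adjusted exact p = 0.251) or among the 2130 strongest peaks (adjusted exact p = 0.219). A TATA box match is a description of the letters and not of a working element. Both strands were searched, and a window at a two-strand peak can cover promoter sequence of genes on either strand. The shares count peaks and were not adjusted for this, so they do not give a share per promoter.

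The DRE and the Motif 1 core were more frequent at one-strand peaks than at all coding starts, and their shares at one-strand and two-strand peaks did not pass the test of a difference. The DRE was at 167 one-strand peaks (8.96%, Wilson 95% interval 7.75 to 10.3%) and 118 two-strand peaks (9.44%, 7.94 to 11.2%; adjusted exact p = 0.736, Fisher's exact test), against 4.57% of all coding starts and 1.22% of peaks with no coding start. The Motif 1 core was at 82 (4.40%, 3.56 to 5.43%) and 60 (4.80%, 3.75 to 6.13%; adjusted exact p = 0.736), against 2.26% of all coding starts and 0.262% of the peaks away from starts. In the replicates the DRE share was 8.60% ± 0.680 at one-strand and 9.71% ± 0.132 at two-strand peaks, and that of Motif 1 was 4.28% ± 0.458 and 5.06% ± 0.581 (SD, n = 3). Only 6 one-strand peaks had both elements, and 1621 (87.0%) had neither. CGATA, which the DRE contains, was at 34.8% of one-strand and 38.2% of two-strand peaks (adjusted exact p = 0.132). This difference of -3.48 points was larger and passed the test at a distance of 1000 bp (-7.80 points, adjusted exact p = 2.34e-05), in windows of 100 bp to each side (-8.06 points, adjusted exact p = 4.10e-05) and in the strongest regions of replicate 3 (-6.46 points, adjusted exact p = 0.00312).

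The initiator letters, TCAGTT or those with cytosine as the last base, were at 8.80% of one-strand and 6.48% of two-strand peaks (adjusted exact p = 0.0763). The GAGA sequence, searched as GAGAGAG, was at 1.13% and 0.320% (adjusted exact p = 0.0731), where 3.87% of all coding starts had it. Differences in the E-box CAGCTG, the GATA sequence (GATAAG), the run of 8 A, the CA repeat and the Zelda sequence CAGGTAG did not pass the same test (adjusted p from 0.271 to 0.880). The last was at 5 one-strand peaks.

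**Figure D3:**
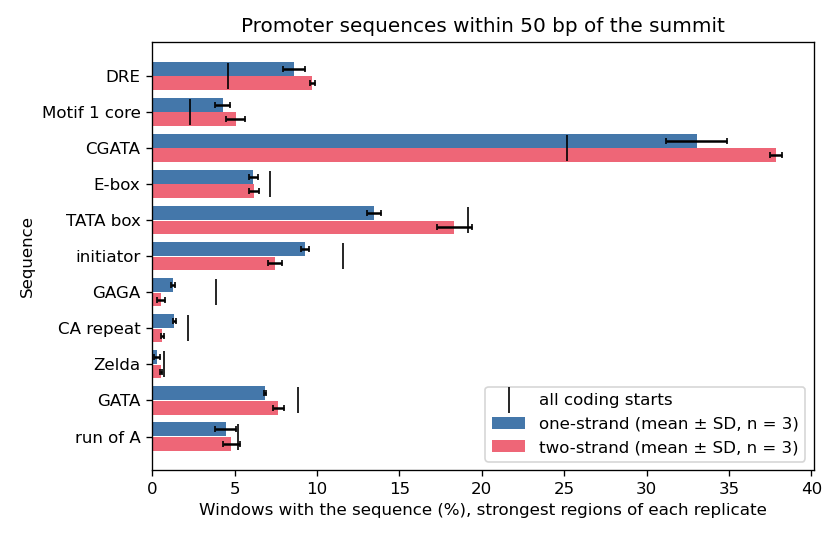
Percent of windows of 50 bp to each side of the summit that hold each promoter sequence, at one-strand and two-strand peaks, in the strongest regions of each replicate (bars are means, error bars SD, n = 3). Black marks give the share of all coding starts, in windows at the median offset. The TATA box has 13.5% at one-strand and 18.3% at two-strand peaks.

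DRE sites near the summits lay mostly before the start, as the summits themselves did (79.1%). Of the 189 DRE sites within 50 bp of one-strand summits, 161 (85.2%) were upstream of the start, with a median of -38.5 bp (quartiles -62.5 and -12.5 bp). By offset, 87 of the 431 peaks with a summit 1 to 50 bp upstream had a DRE (20.2%), against 7 of the 313 peaks at -200 to -101 bp (2.24%). The 90 Motif 1 sites were closer to the start, with a median of -19 bp (quartiles -50.2 and 11.2 bp), and 56 (62.2%) were upstream. Of the peaks with a summit 1 to 50 bp upstream 43 (9.98%) had the Motif 1 core, and of those at -200 to -101 bp 2 (0.639%). These contrasts follow in part from the window. Windows of 50 bp around summits at -200 to -101 bp cannot reach the median site positions of either element. At Top2 the summit lay at -117 bp and a DRE at -50.5 bp, outside the window.

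Motif 1 was more often written on the gene's own strand. Of the 82 one-strand peaks with the core, 55 (67.1%, Wilson 95% interval 56.3 to 76.3%) had it on the strand of the gene and 27 on the other (exact binomial test, two-sided, exact p = 0.00264). After Benjamini-Hochberg adjustment over the 9 sequences with a direction p was 0.0238, and this was the single one of the 9 (11.1%) that passed. The strongest regions of the replicates gave 68.6%, 61.2% and 69.6% (66.4% ± 4.59, SD, n = 3). With windows of 100 bp to each side the share was 73.5% (adjusted exact p = 3.41e-08), and with 25 bp it was 65.8% and no longer passed (adjusted exact p = 0.562). The call was also lost at a distance of 1000 bp (adjusted exact p = 0.0711), among the 2130 strongest peaks (0.439), with noncoding starts counted (0.139), without replicate 1 (0.295), 2 (0.244) or 3 (0.104) and in the strongest regions of replicate 2 (0.366), where the share stayed between 61.2% and 65.9%.

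Sequence differed between strong and weak one-strand peaks. Of 2080 sequences of 6 bases, each counted with its complement, 15 (0.721%) were more frequent in the 466 strongest than in the other one-strand peaks and none was less frequent (Fisher's exact test, Benjamini-Hochberg adjustment over the 2080). AGTCAC led them. It was within 50 bp of 98 of the 466 strongest summits (21.0%, Wilson 95% interval 17.6 to 24.96%) and of 89 of 1398 others (6.37%; odds ratio 3.92, adjusted exact p = 3.39e-14). The replicates' own lists, divided by rank in the same way, gave 20.8% ± 1.86 and 6.10% ± 0.315 (SD, n = 3), and 3 of 3 passed the same test. The scan was added after seeing the data, and its leading sequences were picked in the list called on these same replicates. Passing in a replicate's list is therefore not independent support. Of all coding starts 3.69% had it in a window of that size, centred at a fixed -61 bp from the start and not at a summit. The sites at one-strand peaks had quartiles of -81.5 and 58.5 bp from the start. Part of them thus lay outside such a window, and the shares are not like for like.

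The share stepped down after the 466 strongest, to 6.87%, 6.22% and 6.01% in the next groups of 466. The 312 strongest two-strand peaks had it at 63 (20.2%), so it was not particular to one-strand promoters by this count, and the difference was not tested. The 127 sites at the 466 strongest peaks had a median distance of 15.5 bp from the summit, within the 50 bp searched, and 65 (51.2%) were on the strand of the gene.

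Of the 15 sequences, 5 held GTCAC or its complement, which is also part of the Motif 1 core. After AGTCAC came AATCAC (16.7% against 7.51%, adjusted exact p = 4.47e-05) and AGTGAC (14.4% against 6.08%, adjusted exact p = 5.67e-05), and each passed in 3 of 3 replicates' lists. GGTCAC, the start of the Motif 1 core, was at 14.4% and 8.37% (adjusted exact p = 0.0427) and passed in 1 of 3 replicates' lists. Parts of the DRE were among them too, with ATCGAT at 25.8% and 17.7% (adjusted exact p = 0.0334), which passed in 2 of 3. Sequences that overlap by some letters share sites and are not independent.

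Over the 11 promoter sequences the DRE was at 13.1% of the 466 strongest peaks and 7.58% of the others (adjusted exact p = 0.00276, Fisher's exact test; replicates 13.2% ± 0.272 and 7.09% ± 0.825, SD, n = 3), and CGATA at 42.1% and 32.3% (adjusted exact p = 0.00182). The Motif 1 core was at 4.51% and 4.36% (adjusted exact p = 0.896). In groups of 466 from the strongest to the weakest, the DRE share was 13.1%, 9.66%, 7.51% and 5.58%.

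**Figure D4:**
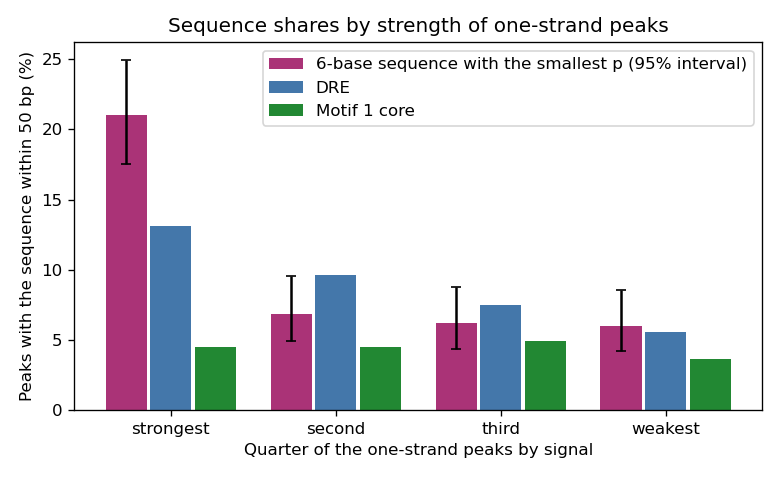
Percent of one-strand peaks with a sequence within 50 bp of the summit, in groups of 466 by signal. The first bar of each group is AGTCAC with its Wilson 95% interval (21.0% in the strongest group, 6.01% in the weakest), the others are the DRE and the Motif 1 core.

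Genes with a coding neighbour back to back had peaks far more often than solitary genes. Of 8804 protein-coding genes with no coding start on the other strand within 1000 bp, 1321 (15.0%) had a summit of the thresholded list at most 500 bp from a start. Of 5052 genes with such a start upstream, 2596 (51.4%) did, where 28.2% of all protein-coding genes did (odds ratio 0.167, Fisher's exact test, two-sided, log10 p = -448). In the replicates the shares were 14.7% ± 0.564 and 49.8% ± 1.75 (SD, n = 3). A single peak between a pair of genes counts for both. Counted by cluster of starts, 1424 of 10629 clusters on one strand (13.4%) and 1351 of 2497 clusters on both strands (54.1%) had a peak. The median span was 0 bp in the former and 432 bp in the latter. A wider cluster puts more sequence within 500 bp of a start, and the shares were not adjusted for this.

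One-strand peaks reached 1720 of 13945 protein-coding genes (12.3%), and 25 gene lists were set beside that share. The lists were described by their counts and were not tested. They differed in how many of their genes were solitary, as 8804 of all 13945 were, and the one-strand shares were not adjusted for this. In the replicates the share over all genes was 12.1% ± 0.282 (SD, n = 3). The median signal over the 1720 genes was 240. Two-strand peaks reached 2311 of the 13945 genes (16.6%).

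Genes for the cytosolic ribosome had one-strand peaks most often, at 44 of 86 (51.2%; replicates 48.4% ± 2.42, SD, n = 3). Two-strand peaks were at 33 of the 86, some of them genes that had both kinds, and 11 had neither. Among the 33 solitary ribosomal protein genes 26 had a peak (78.8%), against 15.0% of all solitary genes. Their peaks were of ordinary strength, with a median signal of 263. RpL36A (signal 965) ranked 459, 502 and 345 in the 3 replicates, RpS3A on chromosome 4 (965) ranked 431, 406 and 478, and RpL26 (638) ranked 646, 634 and 587. Of the mitochondrial ribosomal protein genes 9 of 73 had one-strand peaks (12.3%, the share of all genes) and 33 two-strand peaks (45.2%, against 16.6% of all genes). Of the former, mRpL9 (3596), mRpL41 (1105) and mRpS29 (712) had the strongest. Only 15 of the 73 genes were solitary, and 5 of these had a peak (33.3%), against 15.0% of all solitary genes.

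Translation factor genes had one-strand peaks at 13 of 54 (24.1%, against 12.3% of all genes), and these were strong, with a median of 988. After eIF3c came the release factor gene eRF3 (8587; ranks 90, 97 and 102; 329 bp upstream) and eIF4G1 (5255; ranks 156, 158 and 129), which encodes the scaffold of the cap-binding complex. Aminoacyl-tRNA synthetase genes had 4 of 35 (11.4%), led by beta-PheRS (559), TrpRS-m (170) and AlaRS (143). Both lists had more genes with two-strand peaks, 16 and 12. Among the 11 solitary synthetase genes 4 had a peak (36.4%), against 15.0% of all solitary genes.

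Genes of energy and protein turnover had 12.1% to 20.2% of members with a one-strand peak, against the 12.3% of all genes. Oxidative phosphorylation genes had 18 of 89 (20.2%), with ND-15 of complex I (1153) and COX7AL2 (830) after UQCR-C2. Proteasome genes had 6 of 32, with the regulatory particle genes Rpn1 (11569; ranks 68, 57 and 62), Rpn12 (343) and Rpn10 (202), and 14 had two-strand peaks. Vacuolar ATPase genes had 4 of 33 (12.1%), led by Vha13 (594), Vha16-1 (328) and VhaPPA1-1 (322).

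In each list of nuclear complexes more genes had two-strand than one-strand peaks, as over all genes (16.6% and 12.3%). RNA polymerase subunit genes had 3 of 30 with one-strand peaks, namely Polr2F (4347; ranks 164, 160 and 194), Polr3B (353) and Polr3A (133), and 13 with two-strand peaks. Mediator genes had 6 of 29, with MED11 (3042), MED21 (570) and MED26 (188). Nuclear pore genes had 2 of 25, Nup358 (237) and Nup35 (131), and the latter had no region in replicate 3. Splicing genes had 2 of 26, snRNP-U1-70K (308) and crn (139), against 13 with two-strand peaks. DNA replication genes had 6 of 34, with the helicase subunit gene Mcm7 (2173), Gnf1 (568) and the licensing factor gene Cdc6 (284).

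The lists of chromatin and cell cycle genes included several strong one-strand peaks. Insulator and architectural protein genes had 6 of 17 (35.3%), with mod(mdg4) (12185; ranks 52, 64 and 51), dwg (317) and Trl, which encodes GAGA factor (297). Polycomb and trithorax group genes had 6 of 27 (22.2%), with the demethylase gene Utx (4515; ranks 172, 162 and 167) and ph-p (1007) after Scm. The cell cycle list had 8 of 28 (28.6%), with the cyclin genes CycH (6296) and CycK (1306) and the E2F partner gene Dp (516). Its median was 416, so CycH and CycK stood above the rest, with CycE at 501 and CycA at 142.

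Stress genes had one-strand peaks at 24.0% to 36.4% of members, against 12.3% of all protein-coding genes. Of the genes for stress and folding in the endoplasmic reticulum 8 of 22 (36.4%) had one, with Xbp1 (273), the transcription factor of the unfolded protein response, and the calnexin gene Cnx99A (265) after P58IPK. The median of that list was 174, so P58IPK stood far above the rest. Two-strand peaks were at 6 of the 22 (27.3%). Among the 11 solitary genes of that list 7 had a peak, against 15.0% of all solitary genes. Heat shock genes had 6 of 25, with DnaJ-1 (987), Hsp83 (495) and Hsp27 (470), and 2 had two-strand peaks. No peak of either kind was at 18 of the 25, a share close to that of all genes (10009 of 13945). Of the 15 solitary heat shock genes 3 had a peak. The one-strand share therefore does not show that heat shock genes had peaks more often than other genes.

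Of the developmental and tissue lists, that of the Notch pathway had the largest share. Notch pathway genes had 6 of 24, with the corepressor gene gro (559), numb (351) and the ubiquitin ligase gene mib1 (240). None of 20 gap and pair-rule genes and none of 122 cuticle protein genes had a one-strand peak, and 1 of 179 chemoreceptor genes did, Gr97a (227). Of 8 Hox genes lab had one (signal 132, 12 bp upstream). Cytochrome P450 genes had 5 of 83 (6.02%), with Cyp301a1 (752), Cyp6a21 (537) and Cyp9b2 (463). Neuronal genes had 3 of 19 (15.8%), namely Syx1A (484), elav (451) and unc-13 (318). Muscle genes also had 3 of 19 (15.8%), Msp300 (450), Tm1 (161) and sls (136), whose region ranked 3843, 2658 and 18496. Both shares were near the 12.3% of all protein-coding genes.

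**Figure D5:**
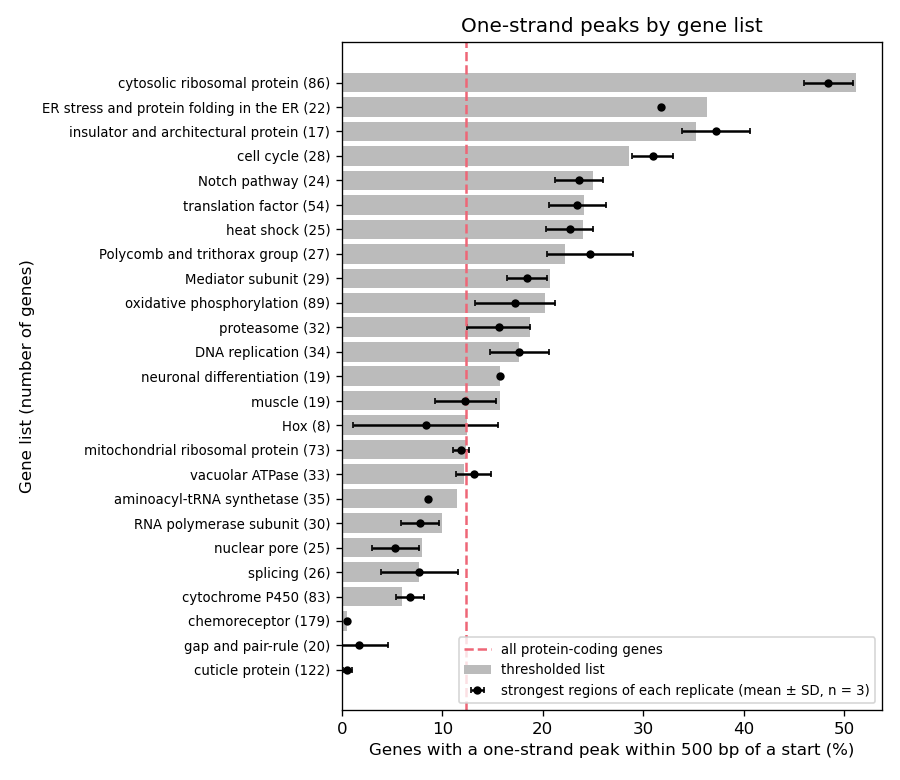
Percent of the genes of each list with a one-strand peak within 500 bp of a start (bars, thresholded list; points and error bars, mean ± SD over the strongest regions of each replicate, n = 3). The dashed line is the 12.3% of all protein-coding genes, and cytosolic ribosomal protein genes reach 51.2%.

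The gene of the tagged protein had no one-strand peak. CG3995 (FBgn0038472, 3R from 17041896 to 17043136 on the minus strand) had a thresholded summit 429 bp from its start (signal 1377), which was a two-strand peak.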

How the data were processed

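The authors deposited narrowPeak lists on dm6 and dm3 for each of 3 replicates, for the pooled replicates and for the thresholded set. Each region has a signal value and a −log10 q-value, per the deposited files. The sources used here do not give the aligner, the peak caller or the threshold. The dm3 lists were not used. Starts came from Ensembl release 115 (BDGP 6.54, 13945 protein-coding genes, 19253 coding starts) and bases from the RefSeq copy, whose X has the 23542271 bp of dm6. Positions are 1-based. Regions were matched between lists by an overlap of at least 1 bp, taking the nearest summit, and ranked by signal. The q-values were not used in any test. Shares were compared with Fisher's exact test or the exact binomial test (scipy 1.17.1), with Benjamini-Hochberg adjustment where given, at 0.05. Intervals cover counting error only. The scripts were tested on simulated peaks. Of 274 gene symbols 273 were found, 11 through a synonym. Other lists were matched by symbol pattern, and the cyclophilin genes Cyp1 and Cyp40 were left out of the cytochrome P450 list after its values were seen. The members, gene lists, sequences and tests were chosen with earlier results of these data known. The comparison by 6 bases, TATA, CGATA and start clusters were added after seeing the data. Genes named were those nearest the 20 strongest one-strand peaks, up to 3 per list by signal, 2 on each side of the distance limit, the 5 with the most different ranks and CG3995, and others were chosen after their values were seen. The labels give each replicate its own biosample. One label field names CG3995 itself as the antibody target, and the description names the tag.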

Additional observations from a re-analysis of the deposited data

How the results depend on the processing

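Read depth was unknown, and no control list was analysed. The solitary against head-to-head comparison, AGTCAC by strength and the TATA box kept their direction in every alternative run. The number of one-strand peaks was within 1.5 times of 1864 except among the 2130 strongest thresholded peaks (971). The upstream share moved by more than 1 SD between replicates with gene records only (74.8%), at 1000 bp (76.5%) and in the strongest regions of replicate 3 (74.4%). The one-strand minus two-strand difference in the share above the median signal was -3.27 points with gene records only, -1.86 among the 2130 strongest and from -3.62 to -1.58 leaving out each replicate. It was larger at 200 bp (-6.99) and at 1000 bp (-7.68). For the strongest regions of every replicate it was -3.17 with gene records only, -3.58 at 200 bp, 1.63 among the 2130 strongest and from -2.61 to -0.364 leaving out each replicate. There it was larger at 1000 bp (-5.56) and with regions matched by the largest signal (-6.52). Peaks kept without a replicate were fewer and were selected by rank in the others. The DRE difference, -0.481 points, turned round with gene records only (0.799), at 200 bp (1.32) and among the 2130 strongest (1.34), and ran from -0.309 to 0.331 leaving out each replicate. The Motif 1 difference, -0.401, turned round in the same settings (0.678, 1.15 and 0.771) and was 0.286 to 0.838 leaving out each replicate. The CGATA difference, -3.48 points, turned round at 200 bp (3.67), and it was larger and passed the test at 1000 bp (-7.80), in windows of 100 bp (-8.06) and in replicate 3 (-6.46). None of the turned values of the DRE, Motif 1 and CGATA passed the test, whereas the 1.63 points above did (exact p = 0.0419). The share of Motif 1 on the gene's strand was 65.8% at 1000 bp, 65.9% among the 2130 strongest, 64.5% with noncoding starts counted, 65.8% in windows of 25 bp, 61.2% in the strongest regions of replicate 2 and 64.1% to 65.7% leaving out each replicate, and no longer passed there. Where no cause is given, the cause was not tested. No paired analysis was possible because the samples form a single group.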
